A study of Mus musculus with 24 samples.

Results

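The 10 genes described here are markers of macrophages and monocytes: Lyz2, Csf1r, Adgre1, C1qa, C1qb, C1qc, Apoe, Fcgr1, Arg1 and Il1b. They were taken by name from a table of read counts for 56791 genes, and all 10 were in it. The table comes from bulk RNA sequencing of 2 sorted cell types, regulatory T cells (Tregs, which restrain immune responses and are defined by the factor Foxp3) and B cells. All mice carried B16-F0 melanoma, a pigmented mouse tumour line, and cells were taken from the tumour or from the lymph nodes draining it. Neither gate is labelled as holding myeloid cells, and the genes are described here as myeloid RNA in the sort gates. The groups were tumour Tregs KO and WT, lymph node Tregs KO and WT, tumour B cells KO and WT, and lymph node B cells KO and WT, with 3 libraries each and 24 in all. KO stands for Foxp3-Cre Appl2 f/f mice and WT for Foxp3-Cre mice, so both carry a Cre recombinase driven by the Foxp3 gene. The allele with loxP sites around part of Appl2, which codes for an endosomal adaptor protein, is present in KO mice only. Since Foxp3 drives the recombinase, KO on a B cell library names the mouse and not a deletion aimed at B cells. Age, sex and sorting markers are not in the labels, and neither is whether the 3 libraries of a group stand for separate animals. The p-values therefore measure only the spread between these libraries, which may be technical.

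Macrophages and monocytes are phagocytes that arise or renew under the growth factor receptor coded by Csf1r. Lyz2 codes for their lysozyme and Adgre1 for F4/80, the surface protein used to recognise mouse macrophages. Fcgr1 codes for the high-affinity Fc receptor for IgG. C1qa, C1qb and C1qc code for the chains of complement C1q, which in mice is made mainly by tissue macrophages. Apoe codes for apolipoprotein E, a lipid carrier that macrophages secrete but that many other cells also make. Arg1 codes for arginase 1, an enzyme that consumes arginine and that tumour-associated myeloid cells often express, and Il1b codes for the inflammatory cytokine interleukin 1 beta, which monocytes and neutrophils release on activation.

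Depth ran from 6245822 to 16239055 counts per library. Levels are given as CPM, read counts scaled to the library total with TMM factors over all 24 libraries. Of the Treg gates, at which the Cre is aimed, only the tumour gate had less Appl2 in KO. It averaged 24.6 ± 3.16 CPM in KO and 53.7 ± 4.25 CPM in WT there (SD, n = 3). In lymph node Tregs Appl2 averaged 26.2 ± 3.02 CPM under the KO label and 22.2 ± 3.80 CPM under the WT label. That is against their names, so directions in that gate follow the labels alone. Appl2 was also lower in KO in both B cell gates, a fall that a Cre driven by Foxp3 does not predict. The KO and WT means were 15.5 and 44.8 CPM in the tumour gate and 11.3 and 24.1 CPM in the nodal one. The reason was not tested, so the B cell values are no check of the labels. Foxp3 was at 279 to 474 CPM in the Treg libraries and at 6.43 to 12.6 CPM in the B cell libraries, and the 11 B cell genes summed to 4250 CPM or more in all B cell libraries and to 318 CPM or less in all Treg libraries. In tumour B cells, KO replicate 1 and WT replicate 2 were unlike the rest of their groups. Their chi-square against the other replicates was 8.98 to 9.56 and 6.85 to 7.42 per gene, where the remaining pairs had 3.35 in KO and 3.01 in WT. In bulk samples, fewer cells of a type and less RNA per cell cannot be told apart.

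All 10 genes had their highest mean in tumour B cells labelled WT, and in each case all 3 of those libraries lay above the other 21. Of 14391 genes that averaged 2 CPM or more in any group, 4.09 % showed that pattern. Per kilobase of exon, Apoe was by far the most abundant of the 10 there, at 753 ± 276 CPM per kb, followed by Lyz2 at 71.9 ± 5.998 and Il1b at 55.7 ± 3.36 (SD, n = 3). Adgre1, at 1.63 ± 0.461, was the least abundant on that scale. No gene was limited to the tumour B cell gate: Lyz2, Csf1r, C1qa, Apoe and Il1b had reads in all 24 libraries. Csf1r and Adgre1 were at or below 6.98 and 3.08 CPM in every library outside WT tumour B cells.

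**Figure D1:**
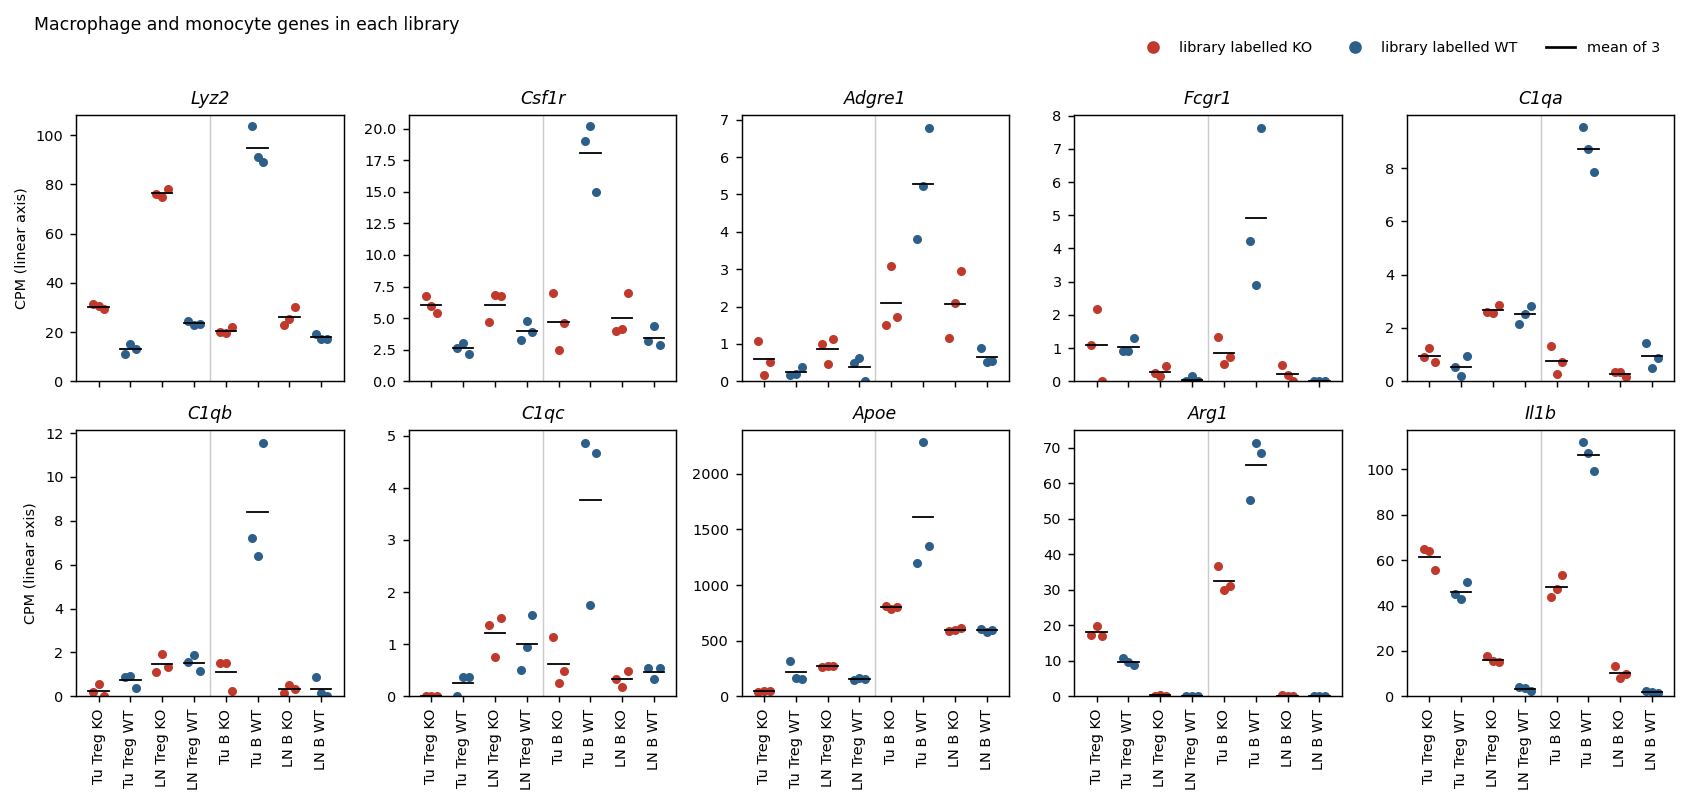
Level of each gene (CPM, linear axes starting at 0) in every library of the 8 groups, with Tu for tumour and LN for lymph node; points are libraries and black lines are means of 3. In WT tumour B cells, Lyz2 reached 89.2 to 104 CPM and Il1b 99.2 to 112 CPM, above all libraries of the other groups, while Apoe was also at 589 to 612 CPM in KO lymph node B cells.

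The promoters of Lyz2, C1qb, C1qc and Il1b are shown because all 4 genes were lower in KO tumour B cells, while in lymph node Tregs Lyz2 and Il1b were higher in KO and C1qb and C1qc were not called. Each line is the 250 bases before the annotated start of the gene, 5′ to 3′, all on the minus strand, from RefSeq on build GRCm38.p6. They lie at chr10:117282273-117282522, chr4:136886201-136886450, chr4:136892915-136893164 and chr2:129371140-129371389. Capitals mark matches, on either strand, to GAGGAA (the core of sites of the myeloid factor PU.1) or TGCTGA (a part of the sites of MAF factors).
Lyz2: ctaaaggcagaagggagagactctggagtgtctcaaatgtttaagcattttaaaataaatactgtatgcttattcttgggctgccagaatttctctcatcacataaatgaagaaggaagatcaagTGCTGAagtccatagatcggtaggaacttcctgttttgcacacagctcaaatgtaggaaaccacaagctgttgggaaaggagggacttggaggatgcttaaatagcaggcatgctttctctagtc
C1qb: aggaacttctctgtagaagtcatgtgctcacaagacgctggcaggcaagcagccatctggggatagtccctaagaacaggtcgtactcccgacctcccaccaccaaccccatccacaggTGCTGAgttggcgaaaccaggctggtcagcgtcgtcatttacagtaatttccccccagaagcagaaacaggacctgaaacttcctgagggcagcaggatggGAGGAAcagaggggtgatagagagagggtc
C1qc: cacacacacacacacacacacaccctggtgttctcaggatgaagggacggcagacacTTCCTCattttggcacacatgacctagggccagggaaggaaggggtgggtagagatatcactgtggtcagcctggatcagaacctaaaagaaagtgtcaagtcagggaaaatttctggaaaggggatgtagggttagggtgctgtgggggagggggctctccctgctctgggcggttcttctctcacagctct
Il1b: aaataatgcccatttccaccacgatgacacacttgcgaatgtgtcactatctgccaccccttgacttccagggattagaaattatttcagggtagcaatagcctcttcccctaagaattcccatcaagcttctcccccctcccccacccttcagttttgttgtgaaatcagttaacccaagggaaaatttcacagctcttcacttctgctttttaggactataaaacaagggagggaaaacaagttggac

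RefSeq windows were matched for 6 of the 10 genes. GAGGAA was found in C1qb, in C1qc on the opposite strand, in Fcgr1 and in 2 of the alternative Apoe windows, and TGCTGA in Lyz2 and C1qb, with no match overlapping another. In all 32851 windows of the same length, 23.3 % held GAGGAA and 16.1 % held TGCTGA on either strand. A further 3 patterns were searched, TGANTCA (AP-1, held by 6.75 % of windows), TTGCNNAA (C/EBP, 9.56 %) and a 10-letter pattern of NF-kB (1.41 %), and none of these letters was in the windows of these genes. A match describes the letters of the window only.

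In tumour B cells, KO and WT were compared to see how the mouse's Appl2 genotype went with myeloid RNA. The Cre is not aimed at this gate, yet Appl2 itself was lower there in KO, at 15.5 against 44.8 CPM. All 10 genes were tested and all 10 were lower in KO, none higher. Of all genes tested in this comparison, 18.8 % were called lower and 21.3 % higher. C1qa, C1qb, C1qc and Fcgr1 passed the filter on low counts only through the WT libraries, so a call of higher was hardly open to them. The median log2 fold change of the 10 genes was -2.06, against -0.03 over all genes tested. The C1q chains differed most and Arg1 and Apoe least.

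Lyz2 was at 20.2, 19.5 and 22.0 CPM in KO and at 104, 90.9 and 89.2 CPM in WT tumour B cells. The groups were far apart, and the change was -2.20 ± 0.11 on the log2 scale (SE of the fit; edgeR quasi-likelihood test, adjusted p = 1.78e-09). The growth factor receptor gene Csf1r was at 6.98, 2.44 and 4.64 CPM in KO and at 19.1, 20.2 and 15.0 CPM in WT. It fell by 1.91 ± 0.29 (edgeR, adjusted p = 0.000119). Adgre1, the F4/80 gene, had 16, 24 and 14 reads in KO and 36, 36 and 64 reads in WT, or 1.51 to 3.08 and 3.81 to 6.79 CPM, without overlap. Its change of -1.34 ± 0.39 passed (edgeR, adjusted p = 0.0136), but did not pass when KO replicate 1, KO replicate 3 or WT replicate 3 was left out (adjusted p = 0.0505, 0.0557 and 0.08, with the changes at -1.13, -1.22 and -1.13). Fcgr1 was at 1.32, 0.514 and 0.732 CPM in KO and at 4.23, 2.91 and 7.64 CPM in WT, a change of -2.47 ± 0.49 (edgeR, adjusted p = 0.00114).

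The complement genes were almost at the limit of detection in KO tumour B cells. C1qa had 14, 2 and 6 reads in KO and 90, 60 and 74 reads in WT, a change of -3.41 ± 0.41 (edgeR, adjusted p = 1.67e-05). C1qb had 16, 12 and 2 reads in KO and 68, 44 and 109 reads in WT, and fell by 2.90 ± 0.46 (edgeR, adjusted p = 0.000171). C1qc had 12, 2 and 4 reads in KO and 46, 12 and 44 reads in WT, and fell by 2.51 ± 0.57 (edgeR, adjusted p = 0.00303). For C1qc the counts touched, since KO replicate 1 and WT replicate 2 both had 12 reads, although their CPM of 1.13 and 1.74 did not. These are the libraries that stood apart. With both left out, all 10 genes were still lower, and the changes of C1qa, C1qc and Fcgr1 were larger, at -4.06, -3.60 and -3.20.

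The remaining genes of the list fell less. Apoe was at 813, 787 and 807 CPM in KO and at 1195, 2283 and 1349 CPM in WT, so that WT replicate 2 alone set much of the mean. Its change was -1.01 ± 0.18 (edgeR, adjusted p = 0.000495), and -0.66 without that library (adjusted p = 8.26e-06). Arg1 was at 36.6, 29.8 and 31.0 CPM in KO and at 55.3, 71.5 and 68.6 CPM in WT, and changed by -1.0005 ± 0.13 (edgeR, adjusted p = 2.73e-05). Il1b was at 43.7, 47.4 and 53.5 CPM in KO and at 112, 107 and 99.2 CPM in WT, and changed by -1.14 ± 0.10 (edgeR, adjusted p = 7.73e-07). In none of the 3 did the groups overlap, which describes these libraries only, since the share of all genes without overlap is not given.

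Of the further myeloid lists in tumour B cells, macrophage, monocyte and Fc gamma receptor genes were mostly called lower and never higher. In KO, 11 of the 25 macrophage and 2 of the 5 Fc gamma receptor genes averaged over 1 CPM, against 21 and 5 in WT. Those that passed the filter on low counts only through WT could hardly be called higher. All 12 monocyte genes averaged over 1 CPM in both. The dendritic cell list had a single call, and the other lists given here went both ways. Complement genes were lower for 5 and higher for 1 of 8 tested. Of 25 other macrophage genes, 15 were tested, of which 11 were lower in KO and none higher, with a median of -1.60. The endocytic receptors Mrc1 and Msr1 fell by 1.74 ± 0.19 and 2.18 ± 0.28, and Mertk, a receptor for engulfing dead cells, averaged 0.0857 ± 0.148 CPM in KO and 5.16 ± 0.810 CPM in WT. Of 12 monocyte genes, all tested, 8 were lower and none higher, among them the transglutaminase gene F13a1 at -2.38 ± 0.18 and the membrane protein gene Ms4a6c at -1.80 ± 0.13. All 5 genes of Fc gamma receptors, Fcgr1 among them, were lower, including the inhibitory Fcgr2b, which B cells themselves express, at -0.47 ± 0.08. The dendritic cell list differed: 5 of its 12 genes were tested, 1 was lower and none higher, and the summed level was 16.8 to 22.7 CPM in KO and 17.4 to 20.0 CPM in WT. Chemokines and cytokines of myeloid cells went both ways, with 5 higher and 4 lower of 16 tested, the cytokine gene Tnf at 1.58 ± 0.18 and the chemokine gene Ccl6 at -1.08 ± 0.13. Myeloid regulators and adaptors were higher for 3 and lower for 4 of 11, with a summed level of 1067 to 1270 CPM in KO and 1017 to 1063 CPM in WT. Interleukin 1 and inflammasome genes were higher for 3 and lower for 1 of 11. Over all genes tested, 21.3 % were called higher and 18.8 % lower, so the counts of higher calls in these last 3 lists are not far from that share.

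Transcripts of other cells moved in the same comparison. The summed level of 11 melanocyte genes, in which Gpnmb is also expressed by macrophages, was 42.0 to 44.1 CPM in KO and 738 to 878 CPM in WT tumour B cells, with all 10 tested lower. Of the 12 stromal and endothelial genes, 6 were tested and 5 were lower. In KO, 6 melanocyte and 3 stromal and endothelial genes averaged over 1 CPM, against 11 and 8 in WT. Some of those tested thus passed the filter on low counts only through WT, and a call of higher was hardly open to them. T cell genes were higher for 10 of 11, with a sum of 481 to 514 CPM in KO against 206 to 224 CPM in WT. Immediate early genes, which answer stimulation or stress within minutes, were higher for 18 of 20, and heat shock genes for 10 of 11. The part of these shifts in the fall of the macrophage and monocyte genes was not tested.

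In tumour Tregs, KO and WT differed in the opposite direction for most of the genes that could be tested. Of the 10, 6 passed the filter on low counts; 4 were higher in KO and 1 was lower, where 27.3 % and 27.2 % of all genes tested were called higher and lower. The 4 that were higher were Lyz2, Csf1r, Arg1 and Il1b, and the 1 that was lower was Apoe. Fcgr1 did not pass, and Adgre1 and the C1q genes were too low to test.

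Lyz2 was at 31.3, 30.4 and 29.3 CPM in KO and at 11, 15.2 and 13.2 CPM in WT tumour Tregs, a change of 1.21 ± 0.13 (edgeR, adjusted p = 3.01e-10). Csf1r was at 6.79, 5.97 and 5.39 CPM in KO and at 2.62, 3.05 and 2.17 CPM in WT, a change of 1.21 ± 0.28 (edgeR, adjusted p = 0.000316). Neither gene overlapped between the groups. Arg1 was at 17.4, 19.9 and 17.0 CPM in KO and at 10.9, 9.61 and 8.85 CPM in WT, and rose by 0.88 ± 0.15 (edgeR, adjusted p = 5.82e-06). Il1b was at 64.9, 63.9 and 55.8 CPM in KO and at 44.9, 43.0 and 50.5 CPM in WT, and rose by 0.42 ± 0.09 (edgeR, adjusted p = 8.31e-05). Both were separated between groups, Il1b narrowly.

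Apoe in tumour Tregs went the other way, at 43.0, 47.4 and 50.3 CPM in KO and 318, 168 and 160 CPM in WT. All KO libraries lay below all WT libraries, and WT replicate 1 lay far above the other WT libraries. The change was -2.20 ± 0.14 (edgeR, adjusted p = 2.4e-16), and -1.81 without that library. Fcgr1 had 12, 24 and 0 reads in KO and 10, 10 and 14 reads in WT, with KO libraries on both sides of WT, a difference of 0.05 ± 0.62 (edgeR, adjusted p = 0.956). C1qc had 0 reads in all 3 KO libraries and 0, 4 and 4 in WT. It was 2.74-fold lower in KO when the KO group is set at a floor of 3 counts, no firm bound on so few reads. C1qa had 32 reads over the 3 KO libraries and 18 over the WT libraries. C1qb had 8 and 24, and Adgre1 had 20 and 8. No test was made of these genes in tumour Tregs.

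Other myeloid genes were mostly higher in KO tumour Tregs. Of 11 macrophage genes tested, 6 were higher, such as the endotoxin co-receptor gene Cd14 at 1.76 ± 0.27 and the fungal receptor gene Clec7a at 1.27 ± 0.24, and 1 was lower. That 1 was Mertk, at 0.238 ± 0.206 CPM in KO and 6.39 ± 0.866 CPM in WT. Monocyte genes were higher for 7 and lower for 2 of 12, with Ly6c2 at 3.88 ± 0.31 and Ccr2, a chemokine receptor gene that Tregs also express, at -1.48 ± 0.06. Myeloid cytokine and chemokine genes were higher for 14 of 16 and lower for none, with Ccl6 at 1.91 ± 0.12. Dendritic cell genes were higher for 9 of 11 and lower for 1, among them the integrin gene Itgax at 2.96 ± 0.18 and the transcription factor gene Zbtb46 at 0.85 ± 0.12. Beside these counts, all 9 B cell genes tested and all 11 genes of CD8 T and NK cells were higher, and all 11 melanocyte genes were lower. Of the 11 B cell genes, 10 averaged over 1 CPM in KO but only 2 in WT, so a call of lower was hardly open to most of them. Of the melanocyte genes, 6 averaged over 1 CPM in KO and 11 in WT, so some could hardly be called higher. The melanocyte sum was 50.7 to 61.4 CPM in KO and 2823 to 3009 CPM in WT. Immediate early genes were higher for 19 of 20 and heat shock genes for 10 of 11. The part of these shifts in the changes of Lyz2, Csf1r, Arg1, Il1b and Apoe was not tested.

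In lymph node Tregs, 7 of the 10 genes were tested; 3 were higher in the libraries labelled KO and none was lower, where 13.8 % and 11.5 % of all genes tested were called higher and lower. Lyz2 was at 76.2, 74.7 and 78.0 CPM in KO and at 24.7, 22.8 and 23.2 CPM in WT, a change of 1.68 ± 0.08 (edgeR, adjusted p = 6.25e-17). Il1b was at 17.7, 15.7 and 15.3 CPM in KO and at 4.17, 3.48 and 2.41 CPM in WT, a change of 2.27 ± 0.18 (edgeR, adjusted p = 2.29e-11). Apoe was at 267, 276 and 276 CPM in KO and at 145, 162 and 160 CPM in WT, a change of 0.79 ± 0.05 (edgeR, adjusted p = 3.17e-13). In all 3 the groups were well separated and the replicates close.

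The C1q genes gave no such difference in lymph node Tregs. C1qa was at 2.61, 2.55 and 2.87 CPM in KO and at 2.17, 2.53 and 2.83 CPM in WT, overlapping almost fully, with a difference of 0.07 ± 0.29 (edgeR, adjusted p = 0.886). C1qb and C1qc differed by -0.07 ± 0.39 and 0.24 ± 0.46 (edgeR, adjusted p = 0.919 and 0.761). Csf1r, at 4.67, 6.83 and 6.72 CPM in KO and 3.25, 4.74 and 3.90 CPM in WT, narrowly missed the threshold at 0.59 ± 0.22 (edgeR, adjusted p = 0.0524), and passed without KO replicate 1 or WT replicate 2 (adjusted p = 0.0241 and 0.0383). Arg1 had 11 reads over the KO libraries and 1 over the WT libraries, whose ratio had a 95 % exact counting interval of 1.45 to 431, and Fcgr1 had 12 and 2 reads, a ratio of 5.46 (1.22 to 50.2). Adgre1, not tested either, had 37 reads over the KO and 14 over the WT libraries. The counting intervals treat each read as independent, while most low counts in the table are even, a pattern that counting of both mates would give, so they are too narrow.

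Lyz1, a paralogue of Lyz2 that lies beside it, averaged 4.51 ± 0.218 CPM in KO and 1.02 ± 0.318 CPM in WT lymph node Tregs and was at most 0.733 CPM in the other groups. Reads could be split between the 2 copies, so the level of Lyz2 is uncertain to that extent. Of 11 other macrophage genes tested in this gate 3 were higher and 1 lower. Marco, a scavenger receptor gene, averaged 51.8 ± 0.934 CPM in KO and 34.8 ± 3.91 CPM in WT, a change of 0.55 ± 0.08. Lyve1, which lymphatic endothelium also expresses, changed by -2.11 ± 0.39. All 11 B cell genes were higher, with a sum of 284 to 318 CPM in KO and 58.6 to 62.5 CPM in WT, and 10 of 11 stromal and endothelial genes tested were lower. Immediate early genes were higher for 18 of 20 and lower for 1, with a sum of 6470 to 6719 CPM in KO and 2703 to 2785 CPM in WT, and heat shock genes were higher for 10 of 11. The part of these shifts in the changes of Lyz2, Il1b and Apoe was not tested.

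In lymph node B cells, 5 of the 10 genes were tested; 3 were higher in KO and none was lower, where 11 % and 10.1 % of all genes tested were called higher and lower. Il1b was at 13.2, 7.99 and 9.83 CPM in KO and at 2.52, 2.03 and 1.52 CPM in WT, a change of 2.35 ± 0.25 (edgeR, adjusted p = 3.04e-08). Lyz2 was at 23.0, 25.2 and 30.2 CPM in KO and at 19.3, 17.1 and 17.1 CPM in WT, a change of 0.55 ± 0.12 (edgeR, adjusted p = 0.00122). Adgre1 had 14, 24 and 36 reads in KO and 10, 6 and 6 reads in WT, a change of 1.67 ± 0.49 (edgeR, adjusted p = 0.0133). It passed the filter on low counts only through the KO libraries, so a call of lower was hardly open to it. In these 3 genes no KO library fell within the WT range. The call on Adgre1 was lost without KO replicate 3 (adjusted p = 0.132), WT replicate 2 (adjusted p = 0.0676) or WT replicate 3 (adjusted p = 0.0668), with changes of 1.32, 1.52 and 1.56, and in 1 fit over all 24 libraries (adjusted p = 0.0512).

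Apoe was nearly level in lymph node B cells, at 589, 595 and 612 CPM in KO and at 602, 583 and 596 CPM in WT, a difference of 0.01 ± 0.04 (edgeR, adjusted p = 0.871). Csf1r differed by 0.53 ± 0.27, with overlapping groups (edgeR, adjusted p = 0.18). The C1q chains summed to 0.828 to 1.05 CPM in KO and 1.013 to 2.88 CPM in WT, and Arg1 had 4 reads over the KO and 6 over the WT libraries. Fcgr1 had 6, 2 and 0 reads in the KO libraries and 0 over the WT libraries. With WT set at a floor of 3 counts over the group, KO was 2.55-fold higher. That ratio rests mostly on KO replicate 1 and is no firm bound, since most low counts are even. Beside Il1b, 18 of 19 immediate early genes tested were higher and 1 lower, and Tnf rose by 2.05 ± 0.37. Granulocyte genes summed to 0.166 to 0.738 CPM in KO and 5.41 to 6.13 CPM in WT, with all 3 tested lower. These 3 passed the filter on low counts only through WT, so a call of higher was hardly open to them. Heat shock genes were higher for 8 of 11. T cell genes were lower for 8 of 11 and higher for 1. Of these 11 genes, 5 averaged over 1 CPM in KO and 11 in WT, so some could hardly be called higher. Of 7 other macrophage genes tested, 1 was higher (Clec7a, 2.14 ± 0.53) and 1 lower (Marco, -1.29 ± 0.22). The part of these shifts in the change of Il1b, Lyz2 and Adgre1 was not tested.

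The KO over WT change was also compared between tumour and lymph node, by the interaction term of 1 fit per cell type. In Tregs all 10 genes were tested; 4 changes were lower in tumour than in lymph node and none was higher, where 17.3 % and 16.8 % of all genes tested were called lower and higher, or 34.1 % in all. These were Apoe, Il1b, Lyz2 and C1qc. In B cells 6 of the 10 were lower and none was higher, where 8.55 % and 12.4 % of all genes tested were called lower and higher, or 20.9 % in all. These were Lyz2, Il1b, Csf1r, Adgre1, Apoe and Fcgr1. The changes of Arg1 were not shown to differ between tissues, at -2.01 ± 1.004 in Tregs and -0.42 ± 1.18 in B cells (edgeR, adjusted p = 0.122 and 0.856), with few reads in lymph node.

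**Figure D2:**
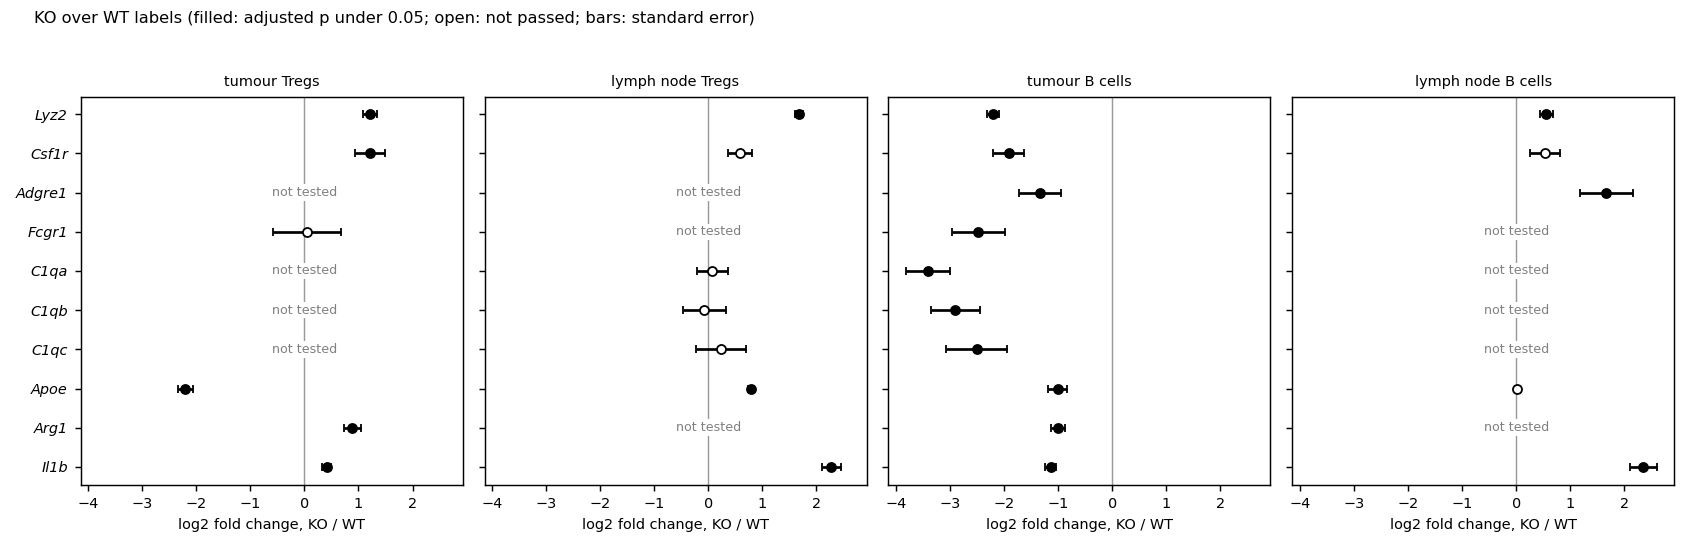
Log2 fold change of KO over WT for each gene in the 4 gates, with bars for the standard error of the fit; filled points passed at an adjusted p under 0.05, open points did not, and genes too low to test are marked. All 10 genes lay below 0 in tumour B cells, from -3.41 for C1qa to -1.0005 for Arg1, while Lyz2 and Il1b lay above 0 in the other gates.

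Tumour and lymph node were compared within each cell type and genotype to ask which of these genes go with the tumour. Arg1 and Il1b were higher in tumour in each of the 4 comparisons, and Arg1 was close to absent in lymph node. In WT B cells all 10 genes were tested and all were higher in tumour, where 15.7 % of all genes tested were called higher. Adgre1, the C1q genes, Fcgr1 and Arg1 passed the filter on low counts only through the tumour libraries, so a call of lower was hardly open to them. Lyz2 averaged 94.6 ± 7.89 CPM in tumour and 17.8 ± 1.27 CPM in lymph node (SD, n = 3), and it rose by 2.48 ± 0.09 (edgeR, adjusted p = 3.99e-13). Il1b averaged 106 ± 6.41 CPM in tumour and 2.02 ± 0.504 CPM in lymph node, and rose by 5.77 ± 0.14 (edgeR, adjusted p = 3.28e-16). Arg1 had 1660 reads over the tumour libraries and 6 over the lymph node libraries. Fcgr1 had 132 and 0 reads, at least 58.4-fold higher in tumour with lymph node at a floor of 3 counts over the group. C1qb changed by 4.60 ± 0.54, or by 6.46 without lymph node WT replicate 1, which held 10 of the 12 lymph node reads. Apoe changed by 1.51 ± 0.16, or by 1.15 without tumour WT replicate 2. Leaving out that tumour library changed no call among the 10.

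In KO B cells the same comparison gave 3 genes higher in tumour and none lower of 6 tested, where 17.5 % and 13.4 % of all genes tested were called higher and lower. Arg1 had 874 reads over the tumour and 4 over the lymph node libraries. It passed the filter on low counts only through the tumour libraries, so a call of lower was hardly open to it. Il1b averaged 48.2 ± 4.91 CPM in tumour and 10.3 ± 2.63 CPM in lymph node, a change of 2.26 ± 0.16 (edgeR, adjusted p = 3.69e-07), and Apoe 802 ± 13.8 and 599 ± 12.04 CPM, with a log2 change of 0.46 ± 0.05 (edgeR, adjusted p = 2.01e-05). Lyz2, Csf1r and Adgre1 did not pass, at -0.31 ± 0.13, -0.04 ± 0.36 and 0.04 ± 0.45 (edgeR, adjusted p = 0.0994, 0.952 and 0.956). Lyz2 passed as lower in 1 fit over all 24 libraries (-0.29, edgeR, adjusted p = 0.0424). The C1q genes and Fcgr1 were too low to test, with 22 C1qa reads over the tumour and 10 over the lymph node libraries.

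In Tregs the genes parted into those higher and those lower in tumour. In WT Tregs 4 were higher and 2 lower of 8 tested, where 21.4 % and 19.9 % of all genes tested were called higher and lower. Of these, Arg1 and Fcgr1 passed the filter on low counts only through the tumour libraries and C1qa only through the lymph node libraries. A call the other way was hardly open to them. Il1b averaged 46.2 ± 3.91 CPM in tumour and 3.35 ± 0.886 CPM in lymph node, a change of 3.80 ± 0.15 (edgeR, adjusted p = 1.43e-20). Arg1 had 319 reads over the tumour libraries and 1 over the lymph node libraries, a ratio of 380 (95 % exact counting interval 67.7 to 15060), and Fcgr1 34 and 2 reads, a ratio of 20.3 (5.19 to 174). Lyz2 fell by 0.84 ± 0.13 and C1qa by 2.16 ± 0.48 in tumour (edgeR, adjusted p = 2.51e-06 and 0.000374), and C1qa was at -2.76 without tumour WT replicate 3. Apoe passed as higher at 0.47 ± 0.13 (edgeR, adjusted p = 0.00375), a call that rested on tumour WT replicate 1: without it the difference was 0.07 (adjusted p = 0.474), and with DESeq2 on all libraries it did not pass (adjusted p = 0.316). C1qb and Csf1r did not pass, at -1.04 ± 0.49 and -0.60 ± 0.30.

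In KO Tregs 2 genes were higher and 4 lower in tumour of 8 tested, where 28.6 % and 27.9 % of all genes tested were called higher and lower. Of these, Arg1 passed the filter on low counts only through the tumour libraries and C1qb only through the lymph node libraries. C1qa also needed the lymph node libraries to pass. A call the other way was hardly open to these genes. Arg1 had 604 reads over the tumour and 11 over the lymph node libraries, and Il1b changed by 1.92 ± 0.09 (edgeR, adjusted p = 9.6e-21). Apoe averaged 46.9 ± 3.67 CPM in tumour and 273 ± 5.12 CPM in lymph node, a change of -2.54 ± 0.06 (edgeR, adjusted p = 1.21e-31), and Lyz2 changed by -1.33 ± 0.08. C1qa and C1qb fell by 1.47 ± 0.40 and 2.57 ± 0.65 (edgeR, adjusted p = 0.00162 and 0.000841), and C1qb was at -3.89 without tumour KO replicate 2, which held 6 of its 8 tumour reads. C1qc had 0 reads in tumour and 52 in lymph node, at least 13.6-fold lower in tumour.

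**Figure D3:**
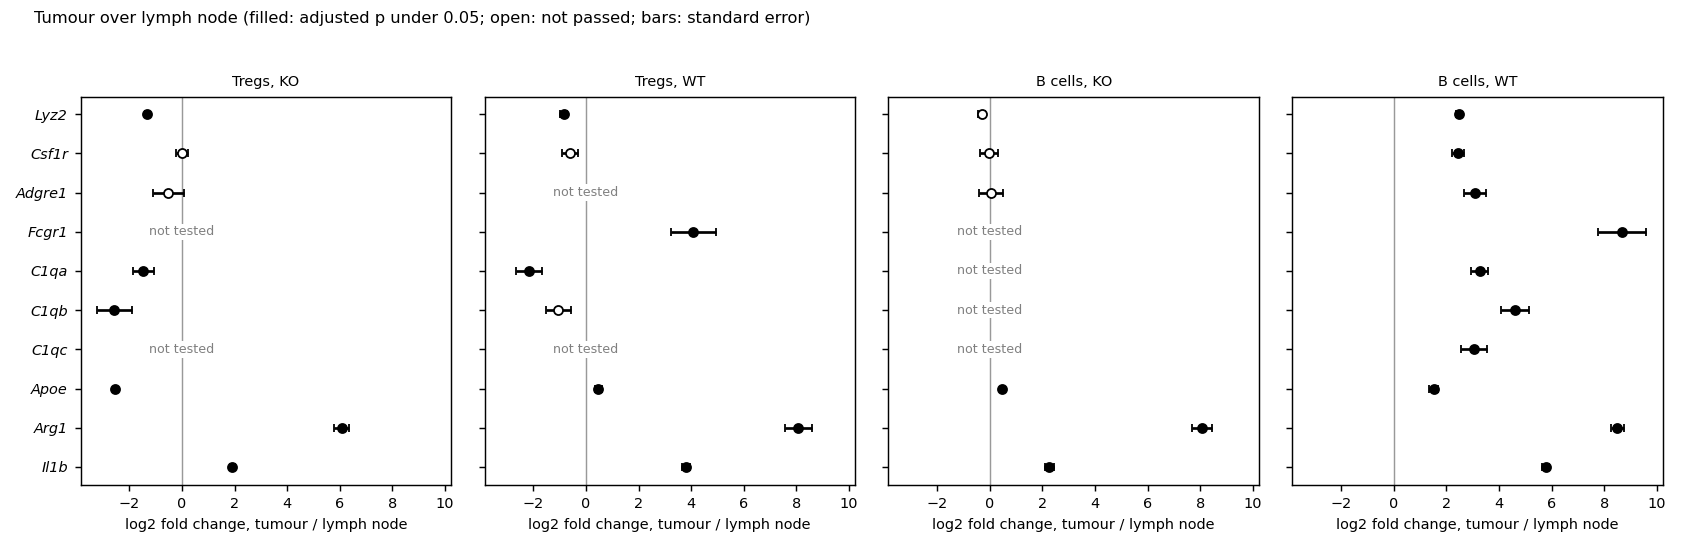
Log2 fold change of tumour over lymph node for each gene, in KO and WT Tregs and in KO and WT B cells, with standard error bars; filled points passed at an adjusted p under 0.05 and open points did not. Arg1 and Il1b lay right of 0 in all 4 panels; the fitted values of Arg1 and of Fcgr1 in WT rest on 0 to 11 reads in lymph node and depend on the prior count of the fit.

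The WT gates of 1 tissue were also set against each other, Tregs over B cells. In tumour all 10 genes were lower in the Treg gate and none was higher, where 31.3 % and 32.8 % of all genes tested were called lower and higher, with Lyz2 at 13.1 ± 2.07 CPM in Tregs and 94.6 ± 7.89 CPM in B cells, and Adgre1 at 0.247 ± 0.112 and 5.28 ± 1.49 CPM (SD, n = 3). Il1b differed least, by -1.23 ± 0.08 (edgeR, adjusted p = 3.62e-09). Adgre1, the C1q genes and Fcgr1 passed the filter on low counts only through the B cell libraries, so a call of higher in Tregs was hardly open to them. In lymph node 4 were higher and 1 lower in the Treg gate of 6 tested, where 33.1 % and 30.5 % of all genes tested were called higher and lower. Of the genes called higher, C1qb passed the filter on low counts only through the Treg libraries, and C1qa also needed them to pass. A call of lower in Tregs was hardly open to these genes. The complement genes C1qa and C1qb changed by 1.45 ± 0.42 and 2.12 ± 0.65 and Lyz2 by 0.44 ± 0.12 (edgeR, adjusted p = 0.00415, 0.00557 and 0.00184). C1qb rested on few reads, 59 over the Treg and 12 over the B cell libraries, and its change was 4.03 without B cell WT replicate 1, which held 10 of those 12. Il1b was called higher at 0.76 ± 0.33 with an adjusted p of 0.0497, which the settings tried moved to between 0.0124 and 0.205. Apoe was lower in the Treg gate, at 156 ± 9.28 CPM in Tregs and 593 ± 9.78 CPM in B cells, a change of -1.89 ± 0.05 (edgeR, adjusted p = 1.52e-22).

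The makeup of the 10 genes differed between the groups. Apoe followed the B cell gate in level, at 582.7 CPM or more in all B cell libraries and 318.2 CPM or less in all Treg libraries. Its ratio to Lyz2 did not separate the gates. Per kilobase Apoe was 14.3 ± 1.64 times Lyz2 in KO and 20.6 ± 1.18 times Lyz2 in WT lymph node B cells, gates in which the C1q genes were close to 0. In tumour B cells that ratio was 24.1 ± 1.26 in KO and 10.6 ± 4.33 in WT, and in tumour Tregs 0.953 ± 0.105 in KO and 10.7 ± 6.17 in WT (SD, n = 3). Among the other 9 genes, Lyz2 made up 71.6 to 80.2 % of the summed CPM per kb in the 4 lymph node groups, on average, and 24.4 to 39.6 % in the 4 tumour groups. Il1b took 48.7 % in KO and 59.3 % in WT tumour Tregs, and 42.6 % in KO and 30.7 % in WT tumour B cells. Arg1 took 12.3 % in KO and 10.8 % in WT tumour Tregs, and 24.6 % in KO and 16.1 % in WT tumour B cells. In tumour B cells, Il1b per kilobase was 1.496 to 1.68 times Lyz2 in the KO libraries and 0.745 to 0.815 times in the WT libraries, without overlap, while in tumour Tregs it was 1.31 to 1.45 times in KO and 1.96 to 2.82 times in WT. Csf1r kept the steadiest ratio to Lyz2, with group means of 0.0386 to 0.0518 in 7 of the 8 groups and of 0.0181 in KO lymph node Tregs.

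**Figure D4:**
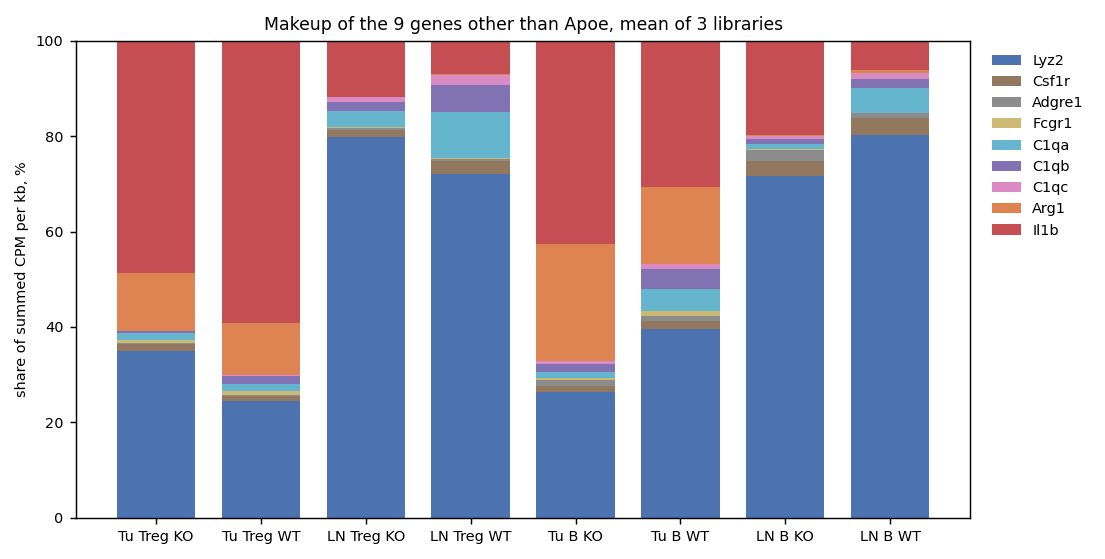
Share of each gene in the summed CPM per kilobase of the 9 genes other than Apoe, as stacked bars from 0 to 100 %, mean of 3 libraries per group. Arg1 and Il1b together fill most of the bars in tumour groups other than WT B cells, and Lyz2 fills 71.6 to 80.2 % of those in lymph node.

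Across the 24 libraries, the genes fell into sets by how their levels went together (Pearson's r of log2 of CPM plus 0.5, a description with no test, since the libraries share 8 groups). Arg1 and Il1b had an r of 0.898, Fcgr1 had 0.811 with Arg1 and 0.805 with Il1b, and the C1q chains had 0.806 to 0.825 with each other. Lyz2 and Csf1r had 0.83, while Apoe had only 0.254 with Lyz2 and 0.04 with Il1b. Among 14391 genes compared, the 5 most like Arg1 were the haemoglobin genes Hba-a2, Hbb-bs and Hba-a1, the coagulation factor gene F10 and the matrix gene Vcan, at 0.969 to 0.979. Those most like Il1b were Clec4e, Ptgs2, Nlrp3, F10 and Pygl, at 0.928 to 0.949, of which Nlrp3 codes for an inflammasome sensor. Those most like Fcgr1 were F13a1, Gm30489, Msr1, Fcgr3 and Pik3r6 (0.861 to 0.911). Those most like Lyz2 were Csf1r, Aif1, Nod1, Mpeg1 and C1qa (0.774 to 0.83). For Apoe they were Rapgef4, Pikfyve, Prpf39, Zmynd11 and Mdm4 (0.955 to 0.963), none of which is in the macrophage lists. For C1qa they were C1qc, Gramd4, C1qb, Calcoco1 and the haemoglobin scavenger receptor gene Cd163 (0.794 to 0.825). The first 4 for C1qb were Calcoco1, Arhgap15, C1qa and C1qc (0.806 to 0.859). For C1qc they were Il9r, Gramd4, Arhgap15, C1qa and Sdc3 (0.816 to 0.872). Those most like Csf1r were Lyz2, the antibody gene segment Ighv1-83, Clec4a3, Cmklr1 and Zhx2 (0.788 to 0.83). Those most like Adgre1 were Igkv4-90, Gm36955, Snora61, Ighv5-15 and Bhlha15 (0.86 to 0.907), of which Igkv4-90 and Ighv5-15 are antibody gene segments.

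Without Apoe, the other 9 genes summed to 109 to 124 CPM in KO and 71.96 to 78.1 CPM in WT tumour Tregs, and to 104 to 108 CPM in KO and 35.1 to 37.2 CPM in WT lymph node Tregs. In tumour B cells they summed to 105 to 115 CPM in KO and 310 to 319 CPM in WT, and in lymph node B cells to 40.6 to 50.9 CPM in KO and 23.6 to 28.9 CPM in WT. The 25 other macrophage genes summed to 58.8 to 64.8 CPM in KO and 42.7 to 47.1 CPM in WT tumour Tregs, and to 48.6 to 53.6 CPM in KO and 125 to 141 CPM in WT tumour B cells. That list lay the other way from the 9 genes in lymph node B cells, at 18.6 to 22.6 CPM in KO and 26.0 to 27.4 CPM in WT. By summed level, the monocyte list, which includes Ccr2, went against the 9 genes in 3 of the 4 gates. A sum follows its most abundant genes: by call, 7 of the 12 genes were higher and 2 lower in KO tumour Tregs. The list summed to 223 to 233 CPM in KO and 331 to 343 CPM in WT tumour Tregs, to 99.4 to 107 CPM in KO and 130 to 140 CPM in WT lymph node Tregs, and to 84.7 to 98.2 CPM in KO and 128 to 146 CPM in WT lymph node B cells. Only in tumour B cells did its sum go with that of the 9 genes, at 159 to 179 CPM in KO and 382 to 426 CPM in WT.

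**Figure D5:**
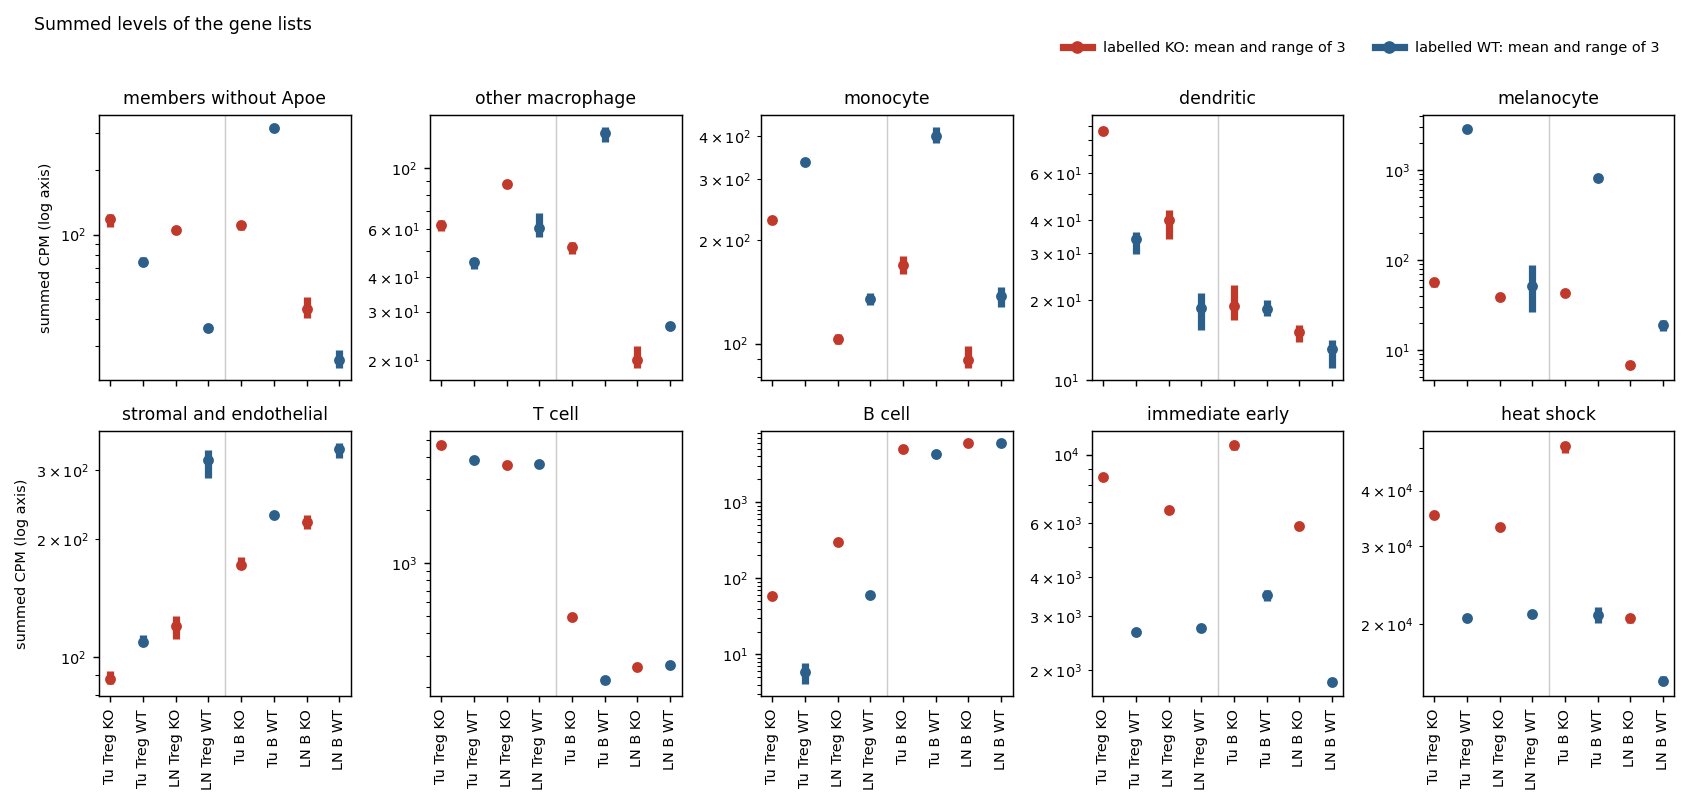
Summed CPM (log axes) of the 9 genes other than Apoe and of 9 other gene lists in the 8 groups; dots are means and thick bars the range of 3 libraries. The 9 genes and the other macrophage genes peak in WT tumour B cells, the melanocyte genes in WT tumour Tregs, and the immediate early genes are higher in KO than in WT in every gate.

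On build GRCm39, the C1q genes lie side by side on chromosome 4, in the order C1qb (136607440 to 136613498), C1qc (136617115 to 136620376) and C1qa (136623228 to 136626114). Arg1 (24791119 to 24803382) and Lyz2 (117113236 to 117118226) lie on chromosome 10, Il1b on 2 (129206490 to 129213059), Fcgr1 on 3 (96190225 to 96201285), Apoe on 7 (19430034 to 19433113) and Adgre1 on 17 (57665691 to 57790527). Csf1r, on chromosome 18 (61233670 to 61265221), shares 15.1 % of its exon bases with Hmgxb3, and Il1b shares 1.31 % with Il1bos. Whether counting used strand is not stated, so these 2 genes are uncertain to that extent. The exons of the other 8 overlap no other annotated gene.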

How the data were processed

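Bulk RNA was sequenced from sorted Tregs and B cells of mouse tumours and draining lymph nodes, 24 libraries in 8 groups of 3. The authors deposited raw read counts per gene, in 1 table of 56791 genes. Per the labels' protocols, RNA was taken up in TRIzol and made into libraries with a stranded mRNA kit. The submitters' processing notes name fastp 0.23.4, STAR 2.5.3a and featureCounts, and the builds GRCm39 and GRCh38. Neither the strand setting nor any use of molecular identifiers is stated. Of the counts from 1 to 10, 69.7 to 75.8 % were even numbers in each library, so counts are not independent molecules and intervals, which cover counting error only, are too narrow.

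Each comparison was fitted on its own 6 libraries (12 for the 2 tests of the genotype difference between tissues) with edgeR 4.0.16 in R 4.3.3. TMM scaling, filterByExpr with a minimum count of 10, the quasi-likelihood F test and Benjamini-Hochberg adjustment over all genes tested were used, and genes with an adjusted p under 0.05 were called. A gene can pass this filter through a single group, and a call toward the other group is then hardly open to it. Where KO and WT groups are said not to overlap, this describes the 3 libraries of each for the named gene. The share of all genes without such overlap is not given. Errors beside log2 fold changes are standard errors of the fit, and those beside levels are SDs. Levels in CPM used TMM factors over all 24 libraries, and CPM per kb the summed exon length of GRCm39. Floors are 3 counts over a group, and ratios of few reads have exact 95 % binomial intervals. The fit was tested on simulated data.

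The members and lists were chosen with earlier results of these data known. Named are all 10 genes in every comparison, the label checks, up to 4 genes with the smallest p of each other list, and the 5 genes most like each member by Pearson's r, of which 1 is not reported here. Alternatives tried were other scalings, no or a stricter filter, DESeq2 1.42.0, totals without immunoglobulin genes, a replicate block, 1 fit over all libraries, and leaving out libraries.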

Additional observations from a re-analysis of the deposited data

Results flagged for a closer look

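For 10 pairs of gene and cell type, the KO over WT change in tumour differed from that in lymph node, by edgeR's quasi-likelihood test of the interaction with adjustment over all genes tested. Values are the log2 change in tumour minus that in lymph node. Among all genes tested, 34.1 % were called in Tregs and 20.9 % in B cells, so a call here is common.

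In Tregs, Apoe differed by -2.998 ± 0.18 (adjusted p = 8.26e-17): it was lower in KO in tumour and higher in KO in lymph node, with no overlap of the groups in either. Il1b differed by -1.87 ± 0.18 (edgeR, adjusted p = 9.02e-11), being higher in KO in both tissues but less so in tumour. Lyz2 differed by -0.48 ± 0.14 (edgeR, adjusted p = 0.00717), again higher in KO in both, and lost the call without tumour WT replicate 2 (-0.36, adjusted p = 0.0598). C1qc was called at -4.91 ± 1.84 (edgeR, adjusted p = 0.036), a fitted value that depends on the prior count because KO tumour Tregs had 0 reads, and it lost the call when any 1 of 9 of the 12 libraries was left out.

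In B cells, Il1b differed by -3.50 ± 0.24 and Lyz2 by -2.77 ± 0.16 (edgeR, adjusted p = 1.18e-09 and 7.47e-11). Both were lower in KO in tumour and higher in KO in lymph node. Adgre1 took the same directions and differed by -3.02 ± 0.62 (edgeR, adjusted p = 0.00131). Csf1r differed by -2.45 ± 0.42 (edgeR, adjusted p = 0.000215), and Apoe by -1.03 ± 0.20 (edgeR, adjusted p = 0.000875), or by -0.67 without tumour WT replicate 2. Fcgr1 differed by -6.74 ± 1.70 (edgeR, adjusted p = 0.00746). Its fitted value depends on the prior count because WT lymph node B cells had 0 reads, and the call was lost without lymph node KO replicate 1 (adjusted p = 0.0877).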

How the results depend on the processing

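Counts of genes called stayed within 1.5 times under all 98 other settings and all 84 fits with a library left out. Counts of the 10 genes called moved further in only 2 comparisons: with the stricter filter, 2 and not 5 were called between WT lymph node Tregs and B cells, and with a library left out, 2 to 4 were called in the Treg interaction (2 without tumour WT replicate 2). Of 752 log2 values under other settings, 733 kept direction and call, 6 lost the call, 6 gained it and 7 changed sign, and of 696 with a library left out these numbers were 648, 22, 5 and 21. The values that changed sign were not called in the reported fits. Fcgr1 between KO and WT tumour Tregs was -0.004 with upper-quartile scaling, and -0.94 to 0.63 with a library left out. Apoe in lymph node B cells was -0.0078 with upper-quartile scaling, and -0.0025 to 0.0254 with a library left out. Csf1r between tumour and lymph node KO Tregs was -0.0244 with upper-quartile scaling, -0.0107 with no filter, -0.0157 with the stricter filter and -0.0186 in 1 fit over all libraries, and -0.17 to 0.10 with a library left out. Leaving out a library alone gave C1qa -0.0172 to 0.18, C1qb -0.33 to 0.11 and C1qc -0.0686 to 0.72 in lymph node Tregs, Adgre1 -0.32 to 0.39 and Csf1r -0.44 to 0.27 between tumour and lymph node KO B cells, Adgre1 -0.68 to 0.66 in the Treg interaction, and Arg1 -0.96 to 2.88 in the B cell interaction. The cause was not tested. No scaling moved the split of higher and lower calls by over 10 percentage points.

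Same-numbered libraries did not deviate together (r -0.116 to 0.09 over 8466 genes). The labels do not say whether they share more than a number, and correlations among 3 libraries per group cannot settle that. With the replicate block, Csf1r in lymph node Tregs gained the call (0.60, adjusted p = 0.0465), Il1b between WT lymph node Tregs and B cells lost it (0.76, adjusted p = 0.0636), and Fcgr1 in tumour Tregs was at -0.24. Few reads limit the C1q genes, Adgre1, Fcgr1 and, in lymph node, Arg1.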
